A study of Homo sapiens with 5 samples.

Results

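The regions described here are the 1000 TEAD4 peaks of highest signal value among 21113 TEAD4 peaks of LX-2 cells, a human hepatic stellate cell line used as a model of myofibroblastic stellate cells (MF-HSCs). They were selected on the signal value of the deposited peak list, so that signal value, peak width, IDR score, q-value and the presence of neighbouring peaks are given as a description, with no test. IDR, the irreproducible discovery rate, scores how far a peak keeps its rank from replicate to replicate. Cells of all samples were treated with DMSO, the solvent, and nothing else. The TEAD4 antibody was used on 3 biological replicates, with 2 input samples, and the authors drew the peaks from replicates 1 and 3 together. By the paper, replicate 2 was left out because IDR found it too little concordant. The list holds a single value per peak and none per replicate, so no spread between replicates could be given for any peak and the sequencing depth of each sample is unknown. A peak list holds no expression either, so the identity of the cells could not be checked from marker genes, and a peak near a gene is no measure of that gene's activity.

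TEAD4 is one of the TEAD family of DNA-binding proteins, which bear a TEA domain and recognise a short motif whose core reads CATTCC. TEADs have little activity of their own and recruit the coactivators YAP1 and TAZ, which enter the nucleus when the kinases of the Hippo pathway (STK3, STK4, LATS1 and LATS2) are inactive, for instance in cells that spread on a stiff matrix. In stellate cells YAP1 is known to accompany the change into matrix-producing myofibroblasts, and AP-1 factors, which bind TGACTCA, often occupy the same enhancers as TEADs.

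The sequences below show the TEAD sites of the 8 strongest peaks that carried the 7-base motif ACATTCC within 100 bp of the summit, passing over the peak at the MYL12A start site (rank 27), whose window overlaps a UTR (hg38, 5′ to 3′, 20 bases to either side of the site nearest the summit). Capitals mark the 7-base motif and any further copy of its 6-base core CATTCC on either strand.
Rank 3, intron of the lncRNA SLC38A4-AS1, chr12:46494594-46494640, minus strand: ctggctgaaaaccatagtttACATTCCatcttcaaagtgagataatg
Rank 6, intron of ESRP2, chr16:68237696-68237742, minus strand: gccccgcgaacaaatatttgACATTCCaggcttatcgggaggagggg
Rank 14, start site of AMOTL2, chr3:134374491-134374537, minus strand: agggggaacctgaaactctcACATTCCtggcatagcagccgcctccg
Rank 15, intergenic, nearest coding gene PRICKLE1, chr12:42961509-42961555, plus strand: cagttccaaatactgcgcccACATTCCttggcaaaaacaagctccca
Rank 16, intron of the lncRNA ENSG00000286069, nearest coding gene HOXC13, chr12:53845143-53845189, plus strand: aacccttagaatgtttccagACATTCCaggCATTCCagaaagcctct
Rank 17, intron of PTPN1, chr20:50541023-50541069, minus strand: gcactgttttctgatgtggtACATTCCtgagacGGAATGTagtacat
Rank 25, intron of ADRA1D, chr20:4225895-4225941, minus strand: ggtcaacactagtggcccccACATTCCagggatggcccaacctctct
Rank 28, intergenic, nearest coding gene TRIP13, chr5:957063-957109, minus strand: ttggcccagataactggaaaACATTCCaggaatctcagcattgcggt

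The centre of the site lay 1.0 bp from the summit at AMOTL2, 2.0 bp at PRICKLE1, 9.0 bp at HOXC13, 10.0 bp at both ADRA1D and TRIP13, and 14.0 bp at ESRP2. It was farther away at SLC38A4-AS1, 41.0 bp, and at PTPN1, 74.0 bp.

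The 3 strongest peaks without the 7-base TEAD motif or an AP-1 motif are shown around their summits (hg38, plus strand). They hold no exact CATTCC within 100 bp of the summit, and capitals mark any 6 bases that differ from it at 1 position.
Rank 1, intergenic, nearest coding gene NUP155, chr5:37272758-37272804: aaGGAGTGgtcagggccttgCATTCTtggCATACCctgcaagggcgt
Rank 2, intergenic, nearest coding gene CDH2, chr18:29165466-29165512: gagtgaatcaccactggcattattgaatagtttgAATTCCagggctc
Rank 4, intergenic, nearest coding gene BDH1, chr3:197490202-197490248: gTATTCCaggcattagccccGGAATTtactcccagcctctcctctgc

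The signal value of the 1000 strongest peaks ran from 268.7 to 1074, with a median of 344.1, against a median of 65.4 in the other 20113 peaks. These 4.74% of the peaks held 18.9% of the signal value summed over the list. The last peaks inside the limit were rank 999 (signal value 268.749, nearest coding gene CALM2) and rank 1000 (268.741, SEH1L). The first outside were rank 1001 (268.73, MGAT4C) and rank 1002 (268.569, PTPRQ), so that nothing in the signal values themselves separates the set from the peaks below it. Every one of the 1000 peaks had the highest IDR score and the highest −log10 q-value (4.76) of the list, as did the next 1000 peaks, so these columns do not rank peaks inside the set.

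The strongest peak (signal value 1074) lay at chr5:37272452-37273080, in intergenic DNA 20.1 kb from NUP155, a nuclear pore gene. The second (865.8) was at chr18:29165206-29165772, 987 kb from CDH2, the gene of N-cadherin. The third (859.9) lay in an intron of SLC38A4-AS1, 122 kb from the amino acid transporter gene SLC38A2. None of these 3 peaks lay within 20 kb of the start of a coding gene.

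Peaks of ranks 5 and 6 lay on chromosome 16 in genes known from epithelial cells. The peak of rank 5 (824.1, chr16:68823310-68823825) had its summit in a coding exon of CDH1, the gene of E-cadherin, 65 bp from the start of one of its annotated transcripts. It also covered a start site of the lncRNA ENSG00000260798, and held an AP-1 motif and no TEAD core. The peak of rank 6 (803.8, chr16:68237474-68237985) was in an intron of ESRP2, which encodes an epithelial splicing regulator, 82 bp from a transcript start. It covered a start site of the lncRNA ENSG00000261469, and its TEAD site is shown above.

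At AXL, a receptor tyrosine kinase gene, the peak of rank 8 (774.2, chr19:41223378-41223876) lay in an intron with 2 copies of the TEAD core and an AP-1 motif. AMOTL2 encodes an angiomotin family protein that binds YAP1, and it was the nearest coding gene to 2 of the 25 strongest peaks. One was in an exon of the lncRNA LINC02004 (rank 10, 765.3, 39.5 kb from AMOTL2) and the other covered the AMOTL2 start site itself (rank 14, 733.1).

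The other coding genes nearest to the 25 strongest peaks were BDH1, SLITRK5, NBPF6, SLC25A26, ROBO2, PDZD2, PRICKLE1, HOXC13, PTPN1, MYEOV, SYNDIG1, PAWR, IQCJ-SCHIP1, CBX7, CRY1, CITED2 and ADRA1D. Their signal values lay between 689.8 (ADRA1D, an adrenergic receptor gene) and 853.4 (BDH1, an enzyme of ketone body metabolism). The peak nearest to CRY1, a circadian clock gene, was 0.568 kb from its start site. Those assigned to CITED2, a transcriptional coregulator gene, and to PRICKLE1, a planar cell polarity gene, were 687 kb and 371 kb away. Of the 25 peaks, 12 were more than 50 kb from the nearest coding TSS (transcription start site), 10 had an intergenic summit, 7 had a summit in an intron of a coding gene and 6 in a lncRNA. The TEAD core occurred in 15 of them, and the core or an AP-1 motif in 17.

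**Figure D1:**
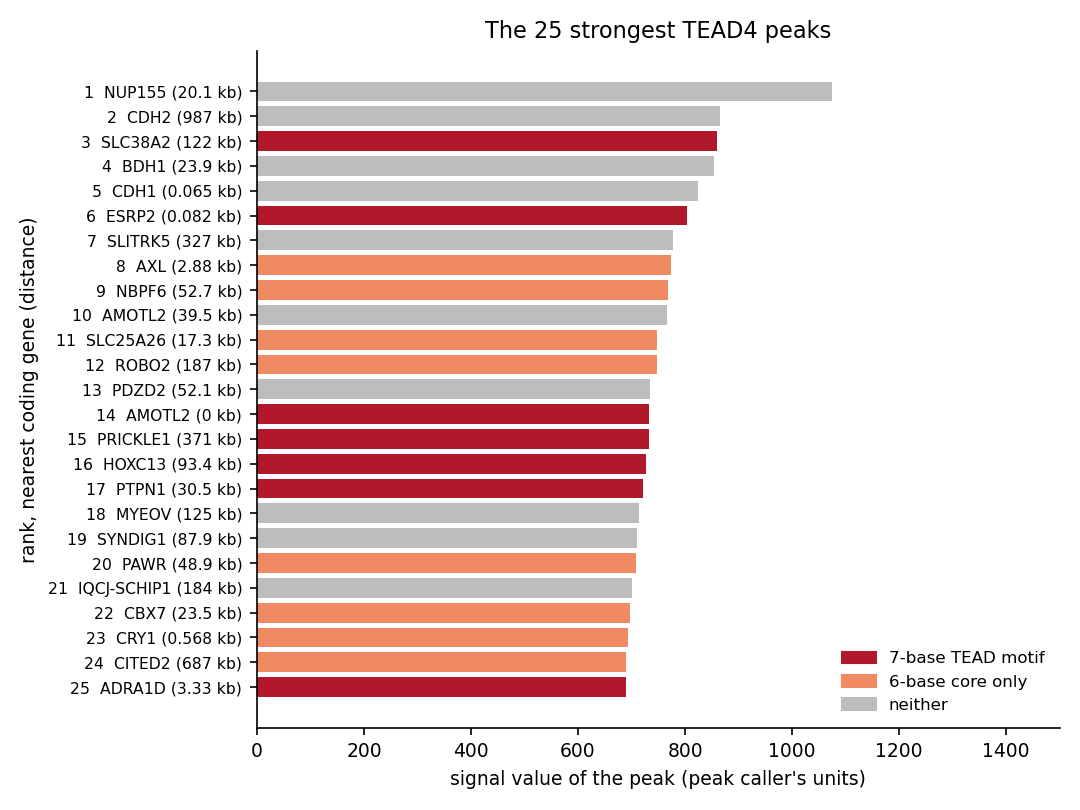
Signal value (x axis, in the units of the peak caller) of the 25 strongest TEAD4 peaks, labelled with rank, nearest coding gene and distance to its TSS. Bar colour gives the TEAD sequence within 100 bp of the summit: the 7-base motif in 7 peaks, the 6-base core only in 8 and neither in 10, including the 2 strongest.

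Both strands of the DNA within 100 bp of a summit were searched for motifs, a feature that the choice of peaks did not use. The TEAD motif ACATTCC was found in 355 of the 1000 strongest peaks (35.5%, Wilson 95% interval 32.6 to 38.5%) and in 4494 of the 20113 others (22.3%, 21.8 to 22.9%). This was a difference of 13.2 percentage points (10.2 to 16.2) and an odds ratio of 1.91 (1.67 to 2.19). The 2-sided exact test of Fisher gave p = 3.44e-20, and 2.41e-19 after adjustment by Benjamini-Hochberg over 7 comparisons. In equally wide control windows centred 2000 bp from the summit on both sides, the motif was found in 3.0% of windows of the strongest peaks and 2.81% of those of the others. Against only the next 1000 peaks the odds ratio was 1.21 and missed the threshold (exact p = 0.0463, after adjustment 0.162), as 31.2% of these peaks held the motif. The same letters read backwards, CCTTACA, were about as frequent in both sets (1.8% and 2.01%, difference -0.21 percentage points, -0.90 to 0.83). The odds ratio of this control was 0.892. It was 0.389 when the 500 strongest peaks were taken, and there also missed the threshold (Fisher's exact test, adjusted p = 0.119).

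The shorter core CATTCC, which includes the 7-base motif, occurred in 691 strongest peaks (69.1%, interval 66.2 to 71.9%) and in 45.7% of the others (odds ratio 2.66, 2.32 to 3.05, exact p = 5.29e-48), with 9.5% and 10.7% in the flanking windows. The longer form ACATTCCA was in 16.6% and 9.55% (odds ratio 1.88). Split by the base before the core, 32.7% of the strongest peaks held GCATTCC and 17.4% of the others did, with 1.75% and 2.42% in the flanks. In the next 1000 peaks, ranks 1001 to 2000, the core was in 58.5% (55.4 to 61.5%) and GCATTCC in 25.6% (23 to 28.4%), nearer to the strongest peaks than the other peaks as a whole were. With T or C before the core the shares were close, 8.7% against 7.22% for TCATTCC and 5.6% against 4.79% for CCATTCC. Most of the excess of cores therefore sat in sites that began with A or G, 62.7% of the strongest peaks and 37.8% of the others holding either. The G-start form and the splits after it were chosen after their values were seen.

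Among the strongest peaks themselves, the G-start form was most frequent at the top. It was found in 42.0% (36.0 to 48.2%) of ranks 1 to 250 and in 28.8% (23.5 to 34.7%) of ranks 751 to 1000. The A-start motif showed no such order, with 35.2%, 31.2%, 40.0% and 35.6% over 4 successive classes of 250 peaks. The plot of motif shares by rank shows both, and the core share fell from 72.4% in ranks 1 to 250 to 35.3% in ranks 16001 to 21113.

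**Figure D2:**
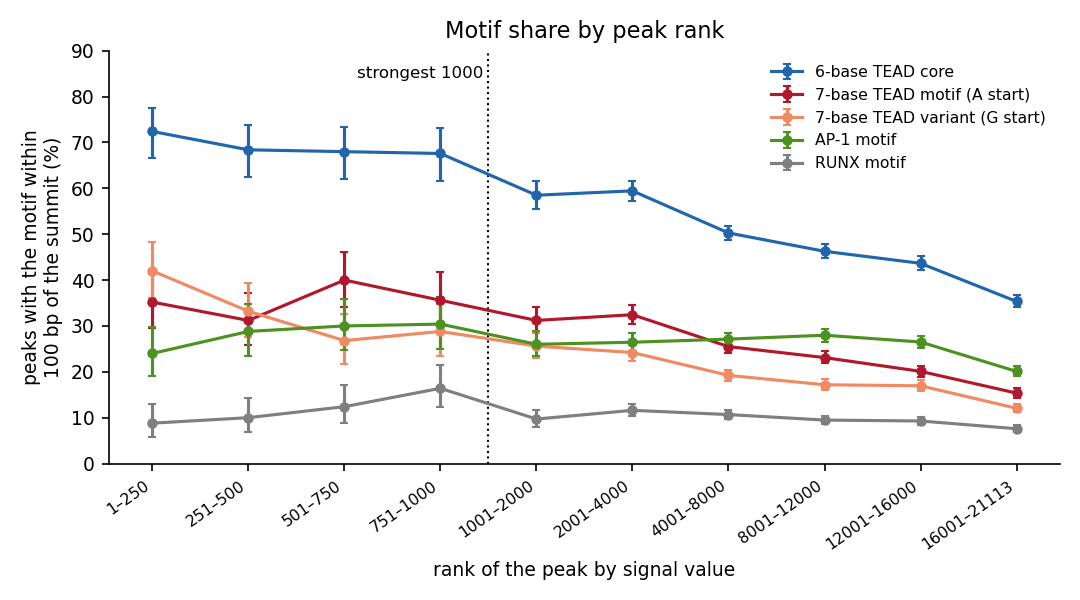
Share of peaks (y axis, %) with each motif within 100 bp of the summit, by rank of signal value (x axis), with Wilson 95% intervals as bars; the dotted line marks rank 1000. The 6-base core lies between 67.6% and 72.4% in the strongest 1000 and falls to 35.3% in the last class, while the AP-1 motif stays between 20.1% and 30.4% throughout.

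TEAD sites lay close to the summits of the strongest peaks. Of the 355 with ACATTCC, 77.7% had a site centred within 25 bp of the summit, with a median distance of 13.0 bp, against 68.5% and 17.0 bp in the others. AP-1 motifs were spread more widely, with 43.1% within 25 bp and a median of 29.0 bp in the strongest peaks. These distances are a description.

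Copies of the core also came in pairs. At least 2 cores within 100 bp of the summit were found in 197 strongest peaks (19.7%, against 8.30% of the others) and at least 3 in 33 (3.3% against 0.965%). Of the 234 neighbouring pairs of cores in the strongest peaks, 28 were on the same strand with exactly 3 bp between them, and no other arrangement occurred more than 5 times. This spacing was present in 26 strongest peaks (2.6%, interval 1.78 to 3.78%) and in 0.388% of the others (0.311 to 0.484%). It was singled out after the spacings were seen and was not tested. The 26 peaks included those nearest to NBPF6, ROBO2, HOXC13, PAWR and CCN2, and those nearest to TJP1, ITGA3, ITGB5, TEAD4 and CCDC80. The HOXC13 sequence above shows it, as do the peak at the start site of CCN2, a matrix-associated growth factor gene and a standard YAP1 target, and the ROBO2 peak, which held 5 cores, the most of any strongest peak. Both are printed on the plus strand with 20 bases outside the outermost cores (the first A of the CCN2 motif is also in capitals).
CCN2 start site, rank 54, chr6:131951442-131951561: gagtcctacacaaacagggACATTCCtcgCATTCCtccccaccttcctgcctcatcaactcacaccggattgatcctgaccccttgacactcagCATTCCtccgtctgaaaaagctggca
ROBO2 intron, rank 12, chr3:76497811-76497910: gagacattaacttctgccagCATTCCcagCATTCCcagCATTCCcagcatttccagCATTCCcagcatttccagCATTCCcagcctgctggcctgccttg

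The core was absent within 100 bp in 309 strongest peaks, among them ranks 1, 2, 4, 5 and 7. In 260 of these 309 (84.1%, interval 79.7 to 87.8%) the 51 bp around the summit held 6 bases that differed from the core at 1 position, against 65.8% of the other peaks that lacked the core and 37.9% of windows 2000 bp away. The form AATTCC, seen in the peaks of ranks 2 and 4, was present in 120 of the 309 (38.8%) against 21.7% of the others without a core and 2.75% of the flanking windows. An AP-1 motif was found in 31.1% of strongest peaks without the core and in 27.1% of those with it. Neither the core nor an AP-1 motif was found in 213 strongest peaks (21.3%, against 38.8% of the others).

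Motifs of other factors differed less between the 2 sets. The AP-1 motif (TGACTCA or TGAGTCA) was in 283 strongest peaks (28.3%, 25.6 to 31.2%) and in 25.3% of the others. In their flanking windows it was in 3.35% and 3.43%, so it was frequent at summits of both sets. The AP-1 odds ratio of 1.17 (1.01 to 1.35) missed the threshold after adjustment (exact p = 0.0338, after adjustment 0.0591). It turned to 0.915 with a single peak per stretch of peaks under 100 kb apart. It passed within 50 bp of the summit (1.19, Fisher's exact test, adjusted p = 0.0496) and, over all 21113 peaks, with GC content in a logistic model (1.19). The TEAD motif and the AP-1 motif occurred together in 92 strongest peaks (9.2%) and in 4.26% of the others. Each motif alone was also more frequent in the strongest peaks, so these joint shares do not show pairing. Within each set, the AP-1 share was lower with the TEAD core than without it. The shares were 27.1% and 31.1% in the strongest peaks, and 21.3% and 28.6% in the others. The RUNX motif TGTGGTT was in 11.9% (10.0 to 14.1%) and 9.42% (odds ratio 1.30, exact p = 0.0111, after adjustment 0.0259), but its odds ratio was 0.984 when the 500 strongest peaks were taken, and its share rose down the set from 8.8% in ranks 1 to 250 to 16.4% in ranks 751 to 1000. In flanking windows the RUNX motif was in 2.95% and 3.72%. The E-box CAGATG was in 15.1% and 16.8% (odds ratio 0.883, 0.740 to 1.05, exact p = 0.178), close to the 14.4% of its flanking windows.

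Where the strongest peaks lay was then compared with the others. A TSS of a coding or lncRNA gene lay within 2.5 kb of 247 of them (24.7%, 22.1 to 27.5%) and of 25.2% of the others (difference -0.47 percentage points, -3.12 to 2.36, exact p = 0.765). With TSSs of coding genes only, the strongest peaks were TSS-proximal less often (odds ratio 0.828, exact p = 0.0301, after adjustment 0.0473). Their summits lay in introns of coding genes in 460 cases (46.0%), in intergenic DNA in 333 (33.3%), in introns of lncRNA genes in 142 (14.2%) and in UTRs in 28, against 48.2%, 31.4%, 12.7% and 3.5% of the other summits. The median distance to the nearest coding TSS was 24.5 kb, against 20.4 kb. The most distant of the strongest peaks lay 1409 kb from the nearest coding TSS, that of GOT2. GC content within 100 bp of the summit was 46.9% ± 9.13 (SD, n = 1000) against 45.9% ± 9.50 (n = 20113), a difference of 0.996 percentage points (SE 0.296, two-sided permutation test over 100000 draws p = 0.00119, adjusted p = 0.00417), which was 0.868 points against the next 1000 peaks alone and there missed the threshold (permutation test, adjusted p = 0.162). CpG-rich summits, where CpG occurred at over 0.6 times the rate its bases predict (250 bp to either side) and GC content was above 50%, made up 4.3% of the strongest peaks and 7.10% of the others, a difference with no test.

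**Figure D3:**
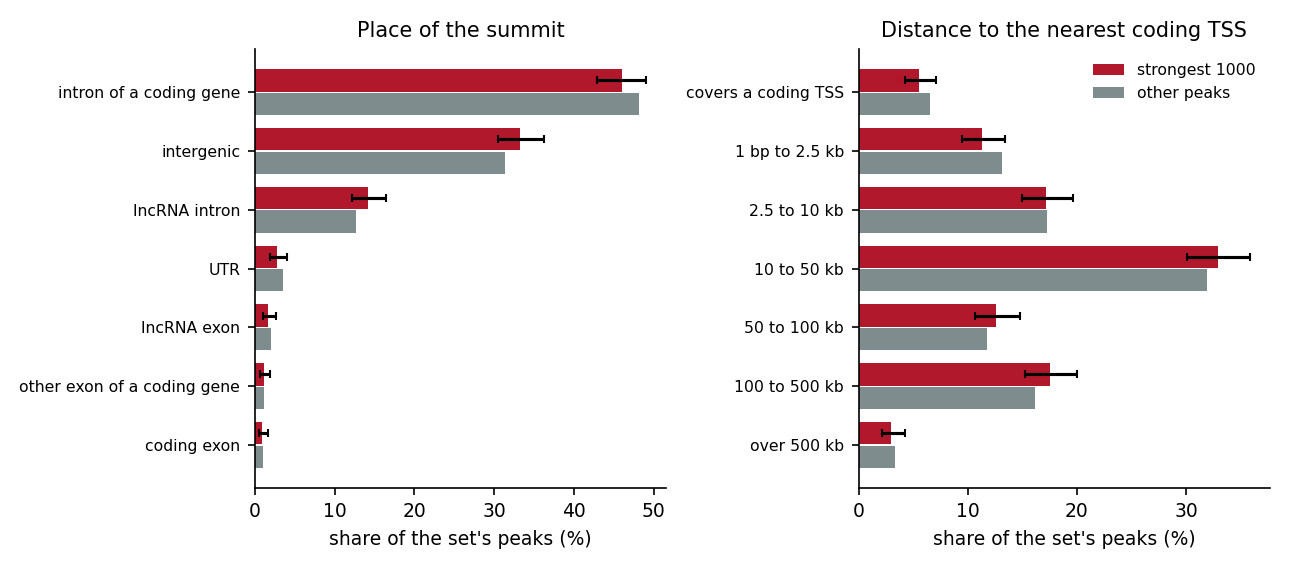
Share of peaks (x axis, %) by the place of the summit (left) and by the distance from the peak to the nearest coding TSS (right), for the 1000 strongest peaks (red, with Wilson 95% intervals) and the 20113 others (grey). Most classes differ by a few percentage points at most, with 46.0% and 48.2% in introns of coding genes and 32.9% and 31.9% at 10 to 50 kb.

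At start sites, however, the sequences differed. A coding TSS, of any annotated transcript and so at times inside the gene, was covered by 55 strongest peaks (5.5%) and by 1308 others (6.50%). The core was present in 49 of these 55 (89.1%) against 39.9% of the 1308, the 7-base TEAD motif in 47.3% against 17.8%, and an AP-1 motif in 23.6% against 9.40%. This split was made after the values were seen and has no test. Examples, picked after their values were seen and not standing for all 55, were the start sites of MYL12A, a myosin light chain gene (rank 27, signal value 670.8), and TRIP6, a zyxin family gene (470.9), and of genes of other kinds such as TXNRD2 (615.1) and SLFN12 (613.9). Further examples were those of the matrix genes CCN2 (617.2), COL16A1 (481.1), THBS1 (476.5) and SPARC (440.6), and those of the Hippo pathway genes LATS2 (462.3) and AJUBA (399.1). TEAD4 itself had such a peak (359.9, with 3 cores).

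The 1000 peaks had 847 different nearest coding genes, of which 729 were nearest to a single peak, 92 to a pair and 26 to 3 or more. AMOTL2 and CRIM1 led with 5 each. At AMOTL2 (chr3:134355347-134375479, minus strand) signal values were 348.6, 765.3, 529.1, 733.1 and 408.7 in the order of the chromosome, the third in an intron and the next at the start site. The TEAD core was present in 4 of these 5 peaks. At CRIM1, which encodes a transmembrane protein that binds growth factors, 3 of the 5 lay inside the gene (438.9, 279.1 and 452.7). The others were 16.6 kb and 893 kb from the nearest CRIM1 TSS, and the TEAD core was found in 2.

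SLC38A2 had 4 (419.0, 288.1, 859.9 and 441.6), all inside SLC38A4-AS1 and between 100.8 and 175 kb away. DAB2, an endocytic adaptor gene, also had 4. One covered its TSS (441.1), 2 lay in introns (279.4 and 295.3), and the highest was intergenic, 55.4 kb away (659.4). OSMR, the receptor gene of oncostatin M, had 4, of which 3 were in the divergent lncRNA OSMR-DT (286.8, 274.7 and 300.3) and the highest in its own intron (488.6). No core was found in any of the OSMR peaks, and an AP-1 motif was found in 2.

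SUSD1 (4 peaks, highest 594.4) and PRKCH, a protein kinase C gene (4 peaks, highest 365.5), followed, then PALM2AKAP2 (606.5), MTCL1 (543.7), SH3BP4 (593.1), ANKRD33B (565.3) and RAD51B (453.5) with 3 each, the highest value in parentheses. These 5 were taken by summed signal value from 19 genes with 3 peaks. Long genes and genes with large empty surroundings can gather more peaks, and their part in these counts was not tested.

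Among all 20007 protein-coding genes, 1099 (5.49%) had a strongest peak within 50 kb of a TSS and 170 (0.85%) within 2.5 kb. Among the 11070 coding genes with any TEAD4 peak within 50 kb, the share was 9.93%. The counts of gene lists below are read beside these shares. They carry no test, because the lists were drawn up with results of these data known. Any TEAD4 peak lay within 50 kb of all 23 integrin and focal adhesion genes and 23 of 25 Hippo genes. Among genes with any peak, the share was 65.0% for YAP and TAZ targets, 37.0% for matrix glycoproteins and 30.4% for Hippo genes. It was 21.7% for integrins, 19.0% for TGF-beta genes, 16.7% for cross-linking enzymes and 15.0% for collagens. AP-1 subunits (8.33%) and mesenchymal factors (7.14%) were among those below 9.93%. The lists are shown together in the plot of gene lists.

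Of 22 YAP and TAZ target genes, 13 (59.1%, interval 38.7 to 76.7%) had a strongest peak within 50 kb and 8 within 2.5 kb. The highest were AXL (774.2), AMOTL2 (765.3), CCN2 (617.2) and NUAK2, a kinase gene (582.8). CCN1 followed with 573.0, and ANKRD1, another standard target, had 351.5 at 9.99 kb. Of 25 genes of the Hippo kinase cascade, 7 (28.0%) had such a peak. They were led by AMOTL2, AJUBA, a LIM protein gene (556.9), PTPN14, a phosphatase that binds YAP1 (498.3), and LATS2 (462.3), of which AMOTL2, PTPN14 and LATS2 are also on the target list. Of 12 TEAD family and cofactor genes, 3 had a peak. They were VGLL4, a gene of a TEAD-binding repressor (370.3), TEAD4 (359.9) and TEAD1 (276.1), and the peaks of both TEAD genes covered a start site.

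Matrix genes were mixed. Of 32 genes of matrix glycoproteins and proteoglycans, 10 (31.2%, 18.0 to 48.6%) had a strongest peak within 50 kb, led by CCN2, CCN1, CCN5 (510.2) and THBS1 (476.5). Of 24 collagen genes 3 (12.5%, 4.34 to 31.0%) did, namely COL4A2, a basement membrane collagen (598.1), COL16A1 (481.1) and COL5A2 (356.9). The cross-linking enzymes had 2 of 14, TGM2 (309.8) and PLOD2 (272.1). Of 20 genes of plasminogen activators, metalloproteinases and inhibitors, 3 did, among them ADAMTS12 (394.1) and PLAUR (336.8).

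Of 26 contractile and actin cytoskeleton genes, 6 (23.1%) had a strongest peak within 50 kb, among them TPM1, a tropomyosin gene (631.8, 45.8 kb away), ACTN4 (358.9) and ACTN1 (349.7). Of 23 integrin and focal adhesion genes 5 (21.7%) did, led by ITGB3 (422.9), ITGA3 (346.8), ITGB5 (343.4) and BCAR1 (334.5). TGF-beta and SMAD genes had 4 of 24, among them SMAD3 (604.6), SMAD7 (377.7) and TGFB1 (335.2). Growth factor receptors and ligands had 6 of 29, led by AXL, AREG (440.5), IGF1R (348.0) and FGF2 (320.6). The caveolae had 2 of 10, CAV2 (298.6) and CAVIN1 (276.0). Some peaks counted for these genes were nearer to another coding gene, namely LACTB for TPM1, CCDC97 for TGFB1, CADM4 for PLAUR and ENSG00000259753 for ITGB3.

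FOSB was the only one of 13 AP-1 subunit genes with a strongest peak within 50 kb (327.6), and this peak lay in an intron of ERCC1, the nearest coding gene. ETS1 (337.5) was the only one of 21 mesenchymal transcription factor genes. None was counted for 4 RUNX genes (Wilson 95% upper limit 49.0%), 7 SRF and myocardin family genes (35.4%) or 8 genes of O-GlcNAc cycling and the hexosamine pathway (32.4%). Of the lists of other cells and states, 0 of 26 hepatocyte genes (12.9%), 0 of 15 genes of quiescent stellate cells (20.4%) and 0 of 13 macrophage and leukocyte genes (22.8%) had one, with the same upper limit in parentheses. All 6 limits lie above the 5.49% over all genes, so these lists are too short to be set against it, and only 5 of the 26 hepatocyte genes had any TEAD4 peak within 50 kb. The endothelial list had 1 of 13, STAB2, by a peak of signal value 269.4 in an intron of NT5DC3. The ribosomal protein list had 1 of 38, RPLP2, by a peak in an intron of TSPAN4 (318.7).

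Of the gene lists that the study used, 4 were counted in the same way, 2 from its own LX-2 data and 2 that it took from elsewhere, and its other lists were not used here. OGTi is treatment with an inhibitor of O-GlcNAc transferase, which adds the sugar to proteins. Of 1158 coding genes matched from 1781 entries for loss of H3K27ac (a histone mark of active regulatory regions) upon OGTi in LX-2 cells, 222 (19.2%, 17.0 to 21.5%) had a strongest peak within 50 kb, and 21.8% of those with any TEAD4 peak did. The study's list of genes upregulated by OGTi in LX-2 was drawn from RNA, unlike that of H3K27ac loss, and holds only the top 500. Of 472 genes matched from it, 28 (5.93%, 4.14 to 8.44%) had a strongest peak within 50 kb, or 9.72% of those with any peak. Of 71 genes of the liver fibrosis matrisome 11 (15.5%, 8.88 to 25.7%) did, and of 61 liver fibrosis genes 5 (8.20%, 3.55 to 17.8%) did. Among those with any TEAD4 peak within 50 kb the shares were 22.9% and 10.4%, beside 9.93% over all such coding genes. Genes enter the first of these lists only through an H3K27ac region, which was not matched here.

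**Figure D4:**
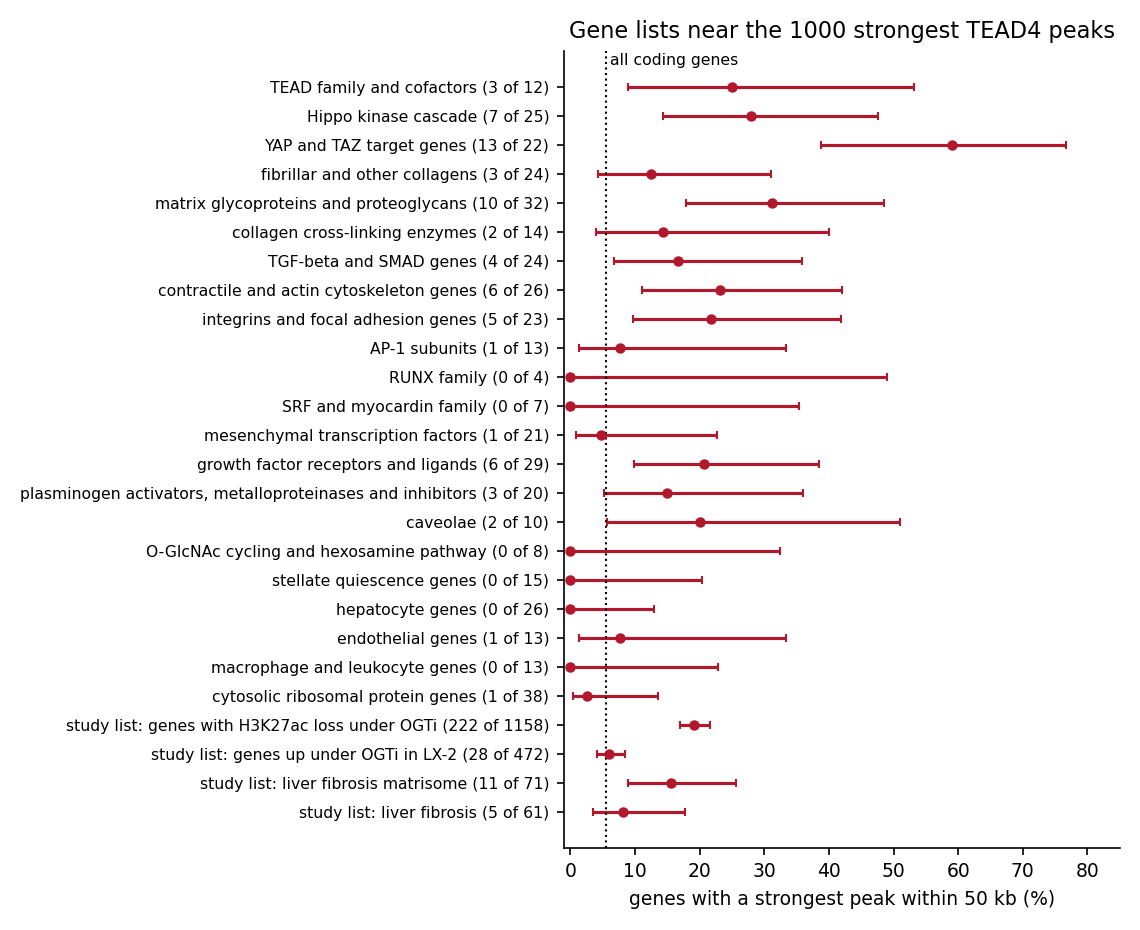
Share of the genes in each list (x axis, %) with one of the 1000 strongest TEAD4 peaks within 50 kb of a TSS, with Wilson 95% intervals and the counts beside the names; the dotted line is the share of all coding genes, 5.49%. The YAP and TAZ target genes lie highest, at 59.1%, and 6 lists, all of 4 to 26 genes, lie at 0.

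Strongest peaks had other peaks close by. The nearest other summit was at a median of 5.32 kb, against 12.1 kb for the other peaks, and lay within 10 kb of 61.4% of them (58.3 to 64.4%) against 46.8%. For the next 1000 peaks this share was 52.4%. Within 50 kb the strongest peaks had a mean of 3.04 other peaks and the others 2.25. Another of the 1000 lay there for 172 of the 1000 (17.2%), and one of the 1000 for 12.2% of the other peaks. Within 100 kb these shares were 23.7% and 18.4%. Joined at gaps under 100 kb, 237 of the 1000 formed runs of 2 or more. The run with most peaks held 5 over 115 kb around AMOTL2, with a summed signal value of 2785. Runs of 4 lay at SLC38A2 (75 kb), SUSD1 (21 kb), DAB2 (107 kb), OSMR (89 kb) and near MED13L and MAP1LC3B2 (73 kb). Runs of 3 included one at AXL and CCDC97 and one at DDAH1 and CCN1.

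**Figure D5:**
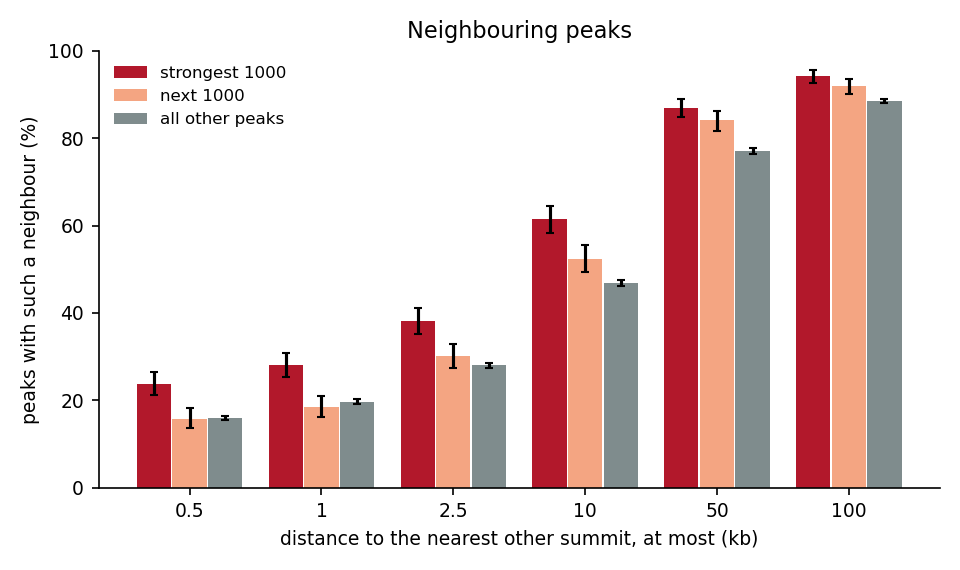
Share of peaks (y axis, %) whose nearest other summit lies within the distance on the x axis (kb), for the 1000 strongest peaks, the next 1000 and all others, with Wilson 95% intervals. At 0.5 kb the strongest 1000 stand at 23.7% against 15.8% for the next 1000, and the sets approach each other at 100 kb (94.3%, 92.0% and 88.5%).

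The closest neighbours lay at a nearly fixed distance. A second summit within 250 bp was found for 236 strongest peaks (23.6%, against 14.8% of the others), all at 199 to 243 bp with a median of 203 bp, and no 2 summits of the list were nearer than 199 bp. These second peaks had a median signal value of 41.6, a median of 10.1% of that of the strong peak, and only 2 of the 237 were themselves among the strongest 1000. Of the 25 strongest peaks 11 had one, including those nearest to NUP155, SLITRK5, ROBO2 and PTPN1. Strong peaks with such a neighbour were wider (median 426 bp against 363 bp) and of higher signal value (median 372.2 against 338.3). The TEAD core was in 66.1% of them, against 70.0% of those without one, and an AP-1 motif in 21.6% against 30.4%. Whether these neighbours are separate binding sites or parts of a single peak split by the caller was not tested. With overlapping peaks merged and counted as 1 neighbour, the share with another within 10 kb was 50%. No such merged share is given for the other peaks, so this value is not a comparison.

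Width followed the signal value within the set. The median width was 476.5 bp in ranks 1 to 100 and 339 bp in ranks 751 to 1000, and the whole set ran from 284 to 881 bp. The list as a whole had a common width of 444 bp, held by 64.8% of the other peaks and by 1 strongest peak (rank 45, signal value 629.7), so that widths are not comparable between the sets. The strongest peaks made up 6.66% of all peaks on chromosome 20 (50 of 751, interval 5.09 to 8.67%) and 1.79% on chromosome X (8 of 447, 0.910 to 3.49%), the highest and lowest share of any chromosome with a strongest peak.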

How the data were processed

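TEAD4 ChIP-seq reads of LX-2 cells were mapped to hg38 with Chromap and compared by the authors with the ENCODE IDR pipeline, which left replicate 2 out. The meanings of the deposited columns were read from the layout and values of the list, and the score was taken as a rescaled IDR. The authors' peak caller, which is not given in the sources used here, supplied the signal value. It also supplied the deposited −log10 q-value and the summit offset. Depth per sample is unknown, and Wilson 95% intervals cover counting error only.

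Peaks were ranked by signal value. Genes and all annotated transcript TSSs came from GENCODE release 44. A distance is that between a TSS and the nearer edge of the peak. Fisher's exact test (two-sided) was used for shares and 100000 permutations for GC content, adjusted by Benjamini-Hochberg over 7 comparisons. Neighbouring peaks are not independent, so p-values are approximate. An eighth comparison, of repeat-masked sequence, was not run because the genome sequence used here carries no repeat marks. The genes named were the coding gene nearest to each of the 25 strongest peaks, the 12 nearest to most strongest peaks, and up to 4 per gene list by signal value (some are not reported here), with other names and the CCN2 and ROBO2 sequences added after their values were seen. The members and lists were chosen with earlier results of these data known. The motif search and tests were checked on simulated data. Software was scipy 1.17.1, numpy 2.4.6, pyfaidx 0.9.0.4, statsmodels 0.14.6, pandas 2.3.3 and matplotlib 3.10.9 under Python 3.11.15.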

Additional observations from a re-analysis of the deposited data

How the results depend on the processing

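Direction and side of the threshold were kept in 12 of 13 alternatives for the TEAD motif (odds ratio 1.41 to 2.66), 9 of 10 for the E-box and for the motif read backwards, 8 of 10 for TSS-proximal peaks, 7 of 10 for AP-1, 5 of 8 for GC content and 4 of 10 for RUNX. Against only the next 1000 peaks the odds ratio was 1.21 for the TEAD motif, 1.26 for the RUNX motif, 1.39 for the motif read backwards and 1.04 for TSS-proximal peaks, and the GC difference was 0.868 points. The TEAD, RUNX and GC results then missed the threshold, the others turned. With the 500 strongest peaks the RUNX odds ratio was 0.984, and it missed the threshold with the 2000 strongest (1.17), with a single peak per merged region (1.25) or per stretch of peaks under 100 kb apart (1.12), and within 250 bp of the summit (1.15). In single peaks per stretch the AP-1 odds ratio was 0.915 and the GC difference 0.623, and within 250 bp the GC difference was 0.702, again past neither threshold. With the 500 strongest peaks the GC difference was 1.49 points and with the 2000 strongest 0.569, against 0.996 with 1000. Both passed the threshold (permutation test, adjusted p = 0.00164 and 0.0385). The AP-1 motif passed within 50 bp (1.19) and with GC content in a logistic model (1.19), the E-box within 50 bp (0.640), and TSS-proximal peaks with coding TSSs only (0.828). The share of strongest peaks with a neighbour within 10 kb moved from 61.4% to 56.9% with 2000 peaks, 38.1% at 2.5 kb, 94.3% at 100 kb and 50% with merged regions. The share of coding genes near a strongest peak moved from 5.49% to 2.85% with 500 peaks, 10.3% with 2000, 0.850% at 2.5 kb and 9.24% at 100 kb, as the construction of these alternatives implies. For the other changes the cause was not tested. The motif GCATTCC was an alternative added after the data were seen. Alternatives on repeat-masked sequence were not run. No replicate could be left out, and depth per sample is unknown. No paired analysis was possible because values of single samples are absent from the peaks.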
